A study of Mus musculus with 8 samples.

Results

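The lipoxygenase genes of the mouse and Alox5ap, the gene of the protein that hands arachidonic acid to Alox5, were examined in embryonic stem cells that carried a hairpin against Mkrn1. The 8 genes (Alox15, Alox5, Alox5ap, Alox8, Alox12, Alox12b, Alox12e and Aloxe3) were taken by name from 19937 measured genes, with the probe set of the highest mean kept for each symbol; each of the 8 had 1 probe set. They were chosen by family name with the difference between the hairpins already known, and Alox15 was selected on its increase in this contrast, so their differences are given as a description with no test. RNA came from R1 cells, male mouse embryonic stem cells (129X1 x 129S1) kept in LIF and 15% serum. The control group (shGFP, n = 4 arrays) received pLKO.1 with a hairpin against GFP, and the knockdown group (shMKRN1, n = 4) received pLKO.1 with a hairpin against Mkrn1, an E3 ubiquitin ligase gene. Both groups were transfected with 2 µg of plasmid and lysed on day 6, after 4 days in 2 µg/mL puromycin, as mixed populations of resistant cells. Each group rested on 1 hairpin, and whether its arrays stand for separate transfections is not in the labels, so the p-values given rest on a spread between arrays that may be purely technical.

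Lipoxygenases are iron enzymes that insert molecular oxygen into polyunsaturated fatty acids such as arachidonic acid and form lipid hydroperoxides. These are reduced to hydroxy acids, passed on to leukotrienes and related lipid mediators, or built into the water barrier of the skin. Alox15 can also oxidise fatty acids still held in membrane phospholipids, and it is known from resident macrophages, where interleukins of the type 2 response raise it. Glutathione peroxidase 4 (Gpx4) reduces phospholipid hydroperoxides, and the loss of that reaction leads to ferroptosis, a form of cell death by lipid peroxidation.

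Mkrn1 (Entrez gene 54484) was lower on every shMKRN1 array than on any shGFP array, with 10.44 ± 0.069 against 9.84 ± 0.036 (log2 level, SD, n = 4 each; exact two-sided permutation p = 0.0286, the smallest possible), or 66.2% of the control level. Array medians lay between 7.14 and 7.24. The leading principal component, with 37.6% of the variance, placed shGFP 7 at 23.2, where its group otherwise ran from -3.45 to 6.2, and shMKRN1 8 at 7.46, where its group otherwise ran from -15.2 to -6.02. All 12 stem cell markers examined lay above the range of silent genes, with a mean level of 11.53 to 11.6 on the shGFP arrays and 11.56 to 11.62 on the shMKRN1 arrays. By the limma fit over all genes 1 of the 12 rose (8.33%, beside 4.49% of all genes). It was Nanog, at 0.25 (SE 0.0501, limma adjusted p = 0.0256). An unadjusted limma p under 0.05 was found for 4 of the 12, 3 of them higher, and for 19.5% of all genes. The silent genes were 1178 olfactory and vomeronasal receptor genes, 95% of which had a mean below 6.5. Probes differ in brightness, so this limit is a rough guide to whether a gene can be read at all.

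Upstream sequence was at hand from RefSeq (GRCm38.p6) for 5 of the 8 genes and is shown for these 5. Alox15, Alox5ap and Aloxe3 are not among them. The windows are the 250 bases before the transcription start, written 5′ to 3′ on the gene's strand, and capitals mark the GC box core GGGCGG or its reverse complement CCGCCC, the letters that Sp1-type factors are known to bind. They lie at chr6:116461179-116461428 (minus strand) for Alox5, chr11:69197844-69198093 (minus) for Alox8, chr11:70255371-70255620 (minus) for Alox12, chr11:69156822-69157071 (plus) for Alox12b and chr11:70322531-70322780 (minus) for Alox12e.
Alox5: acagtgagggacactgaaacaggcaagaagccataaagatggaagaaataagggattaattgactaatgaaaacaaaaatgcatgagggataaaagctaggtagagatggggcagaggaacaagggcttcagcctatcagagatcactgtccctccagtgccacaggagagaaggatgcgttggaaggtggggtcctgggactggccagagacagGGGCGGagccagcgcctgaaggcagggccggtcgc
Alox8: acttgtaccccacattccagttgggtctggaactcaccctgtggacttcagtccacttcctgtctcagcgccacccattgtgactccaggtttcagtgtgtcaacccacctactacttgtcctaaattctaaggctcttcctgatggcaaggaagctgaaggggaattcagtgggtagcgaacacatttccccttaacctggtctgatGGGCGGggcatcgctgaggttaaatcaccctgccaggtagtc
Alox12: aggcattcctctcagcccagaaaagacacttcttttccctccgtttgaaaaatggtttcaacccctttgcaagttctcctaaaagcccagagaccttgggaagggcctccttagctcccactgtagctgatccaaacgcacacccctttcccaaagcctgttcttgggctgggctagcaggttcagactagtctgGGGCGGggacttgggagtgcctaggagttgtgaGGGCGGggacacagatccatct
Alox12b: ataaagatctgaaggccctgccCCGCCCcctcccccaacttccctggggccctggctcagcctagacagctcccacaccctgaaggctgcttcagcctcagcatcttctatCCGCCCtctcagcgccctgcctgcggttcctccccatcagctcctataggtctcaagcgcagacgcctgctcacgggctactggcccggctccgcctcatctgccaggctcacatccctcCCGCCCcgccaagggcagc
Alox12e: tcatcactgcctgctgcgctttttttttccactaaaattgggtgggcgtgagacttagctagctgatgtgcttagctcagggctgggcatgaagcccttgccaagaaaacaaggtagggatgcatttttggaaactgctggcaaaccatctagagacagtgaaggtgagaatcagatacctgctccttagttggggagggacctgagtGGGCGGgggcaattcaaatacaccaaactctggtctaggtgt
All 5 windows held the GC box core at least once, with 3 matches in Alox12b, 2 in Alox12 and 1 in each of the others. Of all 32851 such windows in the table, 32.7% held it. The TATA box core TATAAA or its reverse complement TTTATA was in none of the 5 and in 12.4% of all windows. The share of G and C was 66% in Alox12b, with 11 CpG dinucleotides, and between 49.6% and 54% in the other 4, with 3 to 5, beside medians of 52.4% and 6 over all windows. The matches describe letters in these windows only.

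Alox15 (Entrez gene 11687) stood at about the middle of all genes in control cells and was about 2 times higher in the knockdown. Its log2 level was 7.398, 7.619, 7.857 and 7.688 on arrays shGFP 1, 3, 5 and 7. It was 8.832, 8.749, 8.512 and 8.517 on arrays shMKRN1 2, 4, 6 and 8. All 4 shMKRN1 arrays lay above all 4 shGFP arrays, and the gap between the groups, 0.654, was wider than the range within either group. The means were 7.64 ± 0.19 and 8.65 ± 0.16 (SD, n = 4 each). The difference was 1.01 on the log2 scale (SE 0.106), which is 2.02-fold with a 95% interval of 1.71-fold to 2.37-fold. Of 19937 genes, 12 (0.0602%) were at least 2-fold higher, and Alox15 ranked 11th among all increases. Arrays shGFP 7 and shMKRN1 8, which stood apart, did not carry the difference: without both it was 1.07 (chosen after seeing the data).

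**Figure D1:**
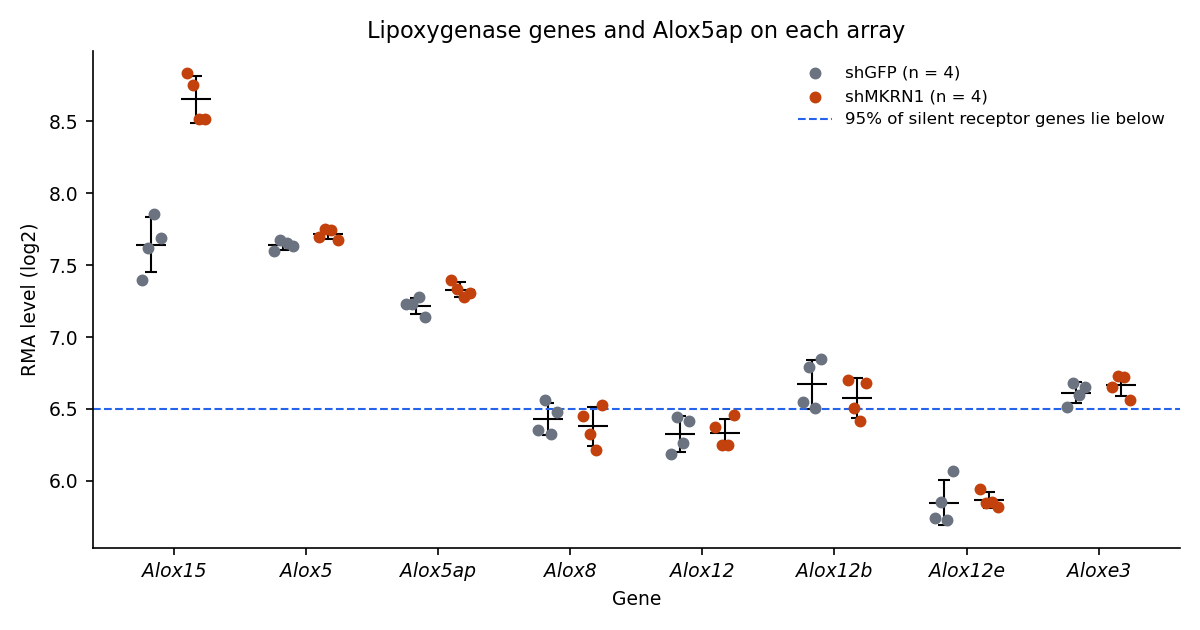
RMA level (log2) of the 8 genes on each array, shGFP in grey and shMKRN1 in orange, with the mean and SD (n = 4 each) as black bars; the dashed line at 6.5 marks the level below which 95% of the silent receptor genes lie. Alox15 is the only gene of the 8 whose groups are visibly apart, at 7.64 and 8.65.

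The leukotriene-forming pair, Alox5 and Alox5ap, differed far less than Alox15, by 1.05-fold and 1.08-fold. Alox5, which starts leukotriene synthesis, read 7.595, 7.672, 7.653 and 7.633 on arrays shGFP 1, 3, 5 and 7. On arrays shMKRN1 2, 4, 6 and 8 it read 7.693, 7.749, 7.745 and 7.676. The groups did not overlap, but they were only 0.00359 apart, and the difference of 0.08 (95% interval -0.03 to 0.18) was at most 1.13-fold at the top of its interval. Alox5ap, a membrane protein that is not itself a lipoxygenase, lay between 7.14 and 7.275 in shGFP and between 7.277 and 7.397 in shMKRN1. Here too the groups touched, with a gap of 0.00169, and the difference was 0.11 (95% interval -0.0041 to 0.23). In all, 3 of the 8 genes (Alox15, Alox5 and Alox5ap) had groups that kept clear of each other, all higher in shMKRN1, as did 14.1% of all genes (10.6% higher, 3.51% lower). By the limma fit over all genes 1 of the 8, Alox15, lay past the adjusted threshold of 0.05 against 4.49% of all genes (3.66% higher, 0.838% lower). As the genes were chosen with this contrast known, nothing is read from either count.

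Alox12 and Alox12e, the genes next to Alox15 on chromosome 11, did not share its difference. Alox12, the platelet-type enzyme, read 6.185, 6.445, 6.261 and 6.419 on arrays shGFP 1, 3, 5 and 7 and 6.375, 6.248, 6.249 and 6.455 on arrays shMKRN1 2, 4, 6 and 8. The groups overlapped throughout, and the difference of 0.00 had a 95% interval of -0.16 to 0.17. Alox12e, an epidermal enzyme of the mouse, lay between 5.73 and 6.07 in shGFP and between 5.819 and 5.946 in shMKRN1, with a difference of 0.02 (95% interval -0.16 to 0.19). Both lay below the limit of 6.5, above 92.9% (Alox12) and 85.2% (Alox12e) of the silent receptor genes, so a change in them may be understated or missed.

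The skin enzymes overlapped between the groups, and their intervals reach differences of up to -0.31 and 0.19. Alox12b makes the R-form hydroperoxide that Aloxe3 turns into an epoxyalcohol in the epidermal barrier. Alox12b lay between 6.507 and 6.846 in shGFP and between 6.418 and 6.7 in shMKRN1, a difference of -0.10 (95% interval -0.31 to 0.12). Aloxe3 lay between 6.514 and 6.681 in shGFP and between 6.564 and 6.729 in shMKRN1, a difference of 0.06 (95% interval -0.08 to 0.19). Alox8, a lipoxygenase that phorbol ester induces in mouse skin, lay between 6.328 and 6.562 in shGFP and between 6.214 and 6.525 in shMKRN1, a difference of -0.05 (95% interval -0.23 to 0.13). Alox12b and Aloxe3 sat just above the limit of 6.5 and Alox8 just below it. Over the 7 genes other than Alox15 the differences ran from -0.10 to 0.11, or 0.936-fold to 1.08-fold. The median over all 8 was 0.04, beside 0.01 over all genes.

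Alox8, Alox12 and Alox12b moved together from array to array rather than with the hairpin. Their deviations from the group means correlated at Pearson r of 0.902 to 0.908 in the 3 pairs over the 8 arrays. They also correlated with the deviations of the median silent receptor gene at 0.646 for Alox8, 0.699 for Alox12 and 0.824 for Alox12b. Alox12e shared this, at 0.746 with the receptor median and 0.736 with Alox12b, though it followed Alox8 (0.383) and Alox12 (0.547) less closely. That receptor median was highest on array shGFP 7 (4.682) and lowest on shMKRN1 6 (4.438), where Alox8 and Alox12b were also lowest. These genes share the arrays and a dim signal, and the part of the background signal in their pattern was not tested. Alox15 did not follow it (0.0347).

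The lipoxygenase genes lie in 2 groups on chromosome 11, and the measured neighbours of Alox15 differed much less than Alox15 and did not pass the test. By the order of genes in RefSeq, Aloxe3, Alox12b and Alox8 form one group and Alox12, Alox12e and Alox15 the other. Beyond Alox15 follow Pelp1, a nuclear receptor coregulator gene, at 0.06 (SE 0.0469; limma adjusted p = 0.52), Arrb2, the arrestin gene, at 0.17 (SE 0.0518; adjusted p = 0.0996), and the Mediator subunit gene Med11 at 0.05 (SE 0.0533; adjusted p = 0.669). On the other side of Alox12 lie Rnasek, an endoribonuclease gene, at 0.22 (SE 0.0798; adjusted p = 0.166), and 0610010K14Rik at 0.20 (SE 0.0527; adjusted p = 0.0646). Rnasek, Arrb2 and 0610010K14Rik had unadjusted p-values of 0.022, 0.0084 and 0.00371 in the limma fit, and for Arrb2 and 0610010K14Rik all shMKRN1 arrays lay above all shGFP arrays. None of the 24 distinct neighbours within 3 measured genes of any of the 8 genes passed limma, where 4.49% of all genes did. An unadjusted p under 0.05 was found for 5 of them, 4 higher (these 3 and Zfand4, beside Alox5), and for 19.5% of all genes (13.7% higher). Taken over all 24, neither count sets the neighbours apart from other genes, and their median difference was 0.04. Rnasek, Arrb2 and 0610010K14Rik, 3 of the 4 higher ones, lie around the group that holds Alox15, which was not counted apart.

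**Figure D2:**
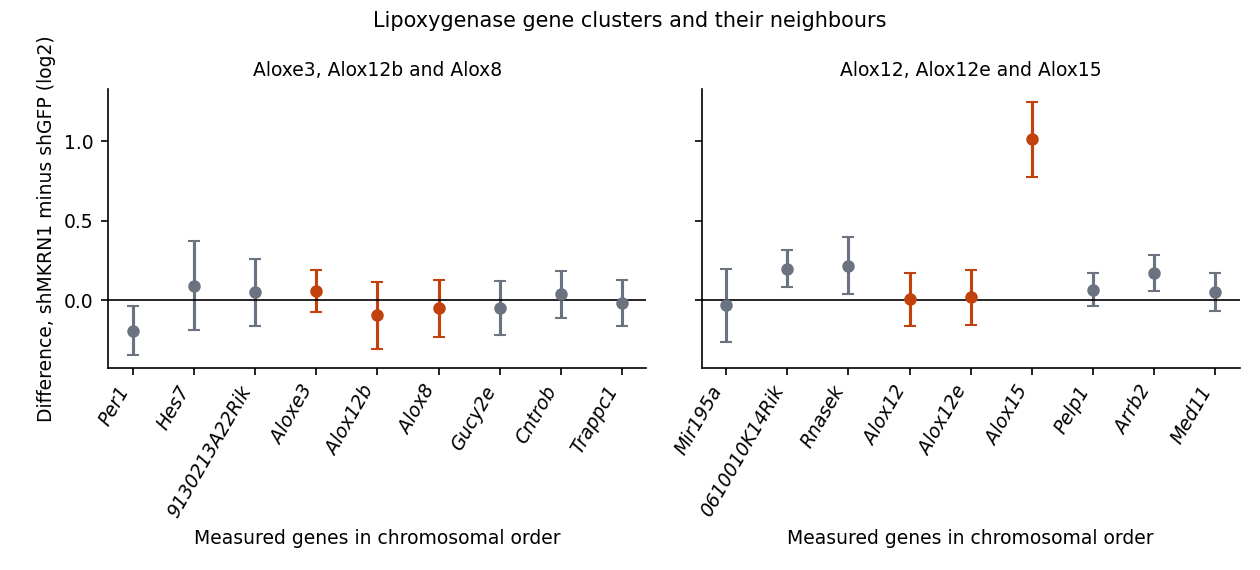
Difference between shMKRN1 and shGFP (log2, limma estimate with its 95% interval, n = 4 each) for measured genes in chromosomal order around both chromosome 11 groups, with lipoxygenase genes in orange and neighbours in grey. Alox15 stands at 1.01, and the other genes plotted lie between -0.19 and 0.22.

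Several enzymes that use or make related lipids were higher in the knockdown, and most genes of the cascade did not pass the test. Across 9 lists that surround the lipoxygenases, 193 of 209 genes were measured. By limma 17 rose and 2 fell (9.84%, beside 4.49% of all genes), and the median difference was 0.02. The count of 19 fell to 11 without shGFP 1, 10 without shMKRN1 2, 6 without shGFP 3, 9 without shMKRN1 4 and 6 without shMKRN1 6. The lists were chosen with earlier results known, and some of their members (Gpx4, Chac1 and Ephx1 among them) were known to change.

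Of 27 measured genes in the list for arachidonic acid release and related lipases, 1 rose (3.7%, near the 4.49% of all genes). It was Pla2g15, a lysosomal phospholipase, at 0.29 (SE 0.0678, limma adjusted p = 0.0431). Of the 8 fits that left out an array its call was kept in 1, that without shGFP 5 (limma adjusted p up to 0.125). Pla2g4a, the cytosolic phospholipase that feeds both lipoxygenases and cyclooxygenases, stood at 7.01 and 7.20 (difference 0.20, SE 0.104; adjusted p = 0.343). In the list for polyunsaturated lipid supply, which holds synthetase, acyltransferase, desaturase and elongase genes, 1 of 19 rose (5.26%, near the 4.49% of all genes). It was Acsl6, an acyl-CoA synthetase gene, at 0.38 (SE 0.0541, limma adjusted p = 0.00517, kept without each array). Acsl4, the synthetase that favours arachidonic acid and is required for ferroptosis in many cells, was at 10.37 and 10.11 (difference -0.26, SE 0.0715; adjusted p = 0.0689), and Lpcat3, which places such chains in phospholipids, was at 0.02 (adjusted p = 0.868). Acsl4, Lpcat3 and Pla2g4a were chosen after their values were seen.

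In the leukotriene branch 2 of 13 genes rose and none fell (15.4%, beside 4.49% of all genes). Ptgr1, a reductase that inactivates leukotriene B and prostaglandins, read 8.838, 8.823, 8.768 and 8.57 on arrays shGFP 1, 3, 5 and 7. It read 9.23, 9.166, 9.215 and 9.16 on arrays shMKRN1 2, 4, 6 and 8. The groups were well apart, and the increase of 0.44 (1.36-fold, SE 0.0655; limma adjusted p = 0.0063) was kept without each array. Abcc1, an exporter of leukotriene C and other glutathione conjugates, rose by 0.30 (SE 0.0511; adjusted p = 0.0134), and did not pass when either shGFP 3 or shMKRN1 6 was left out (adjusted p up to 0.0551). The synthesising enzymes Lta4h (0.00) and Ltc4s (-0.01) had adjusted p-values of 0.987 and 0.975 (chosen after their values were seen).

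Of 14 genes in the prostanoid list, Ptges and Ptgis rose and Akr1c18 fell (21.4%, beside 4.49% of all genes). Ptges, the inducible prostaglandin E synthase gene, read 8.701, 8.287, 8.178 and 8.07 on arrays shGFP 1, 3, 5 and 7 and 9.287, 9.122, 8.93 and 8.745 on arrays shMKRN1 2, 4, 6 and 8. The groups came within 0.044 of each other, and the increase was 0.71 (1.64-fold, SE 0.147; limma adjusted p = 0.0262). Ptgis, the prostacyclin synthase gene, rose by 0.33 (SE 0.0632; adjusted p = 0.0192). Akr1c18, a reductase gene within the range of the silent receptors in both groups (6.03 and 5.65), fell by 0.38 (SE 0.0872, limma adjusted p = 0.0389) and is not read as expression. Slco2a1, from the same list and chosen after its value was seen, was at 9.42 and 8.93 (difference -0.49, SE 0.18, limma adjusted p = 0.166). Ptgs2, the inducible cyclooxygenase gene, varied widely within both groups, with a control level of 9.91 ± 0.50 and a knockdown level of 9.74 ± 0.33 (SD, 4 arrays each, limma adjusted p = 0.768, chosen after its value was seen). It fell with array number, from 10.53 on shGFP 1 to 9.339 on shGFP 7 and from 10.05 on shMKRN1 2 to 9.352 on shMKRN1 8. Ptges and Slco2a1 also fell in this order in both groups. So did genes of other lists, such as Hmox1, from 10.76 to 10.38 in shGFP and from 10.7 to 10.3 in shMKRN1. Hmox1 was chosen after its value was seen, and the cause of this order was not tested. The calls of Ptges and Ptgis each held in 3 of the 8 fits without an array (adjusted p up to 0.082 and 0.0725) and were both lost without shGFP 3, shMKRN1 2, shMKRN1 4 or shMKRN1 6. That of Akr1c18 was kept only without shMKRN1 2 or shGFP 7.

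The epoxide branch held 3 increases and 1 decrease among 27 genes (14.8%, beside 4.49% of all genes). Of the 27 genes, 8 lay above the silent limit. Ephx2, the soluble epoxide hydrolase that opens fatty acid epoxides, rose by 0.38 (SE 0.0714; limma adjusted p = 0.0175). Ephx1, the microsomal epoxide hydrolase, rose by 0.47 (SE 0.0925; adjusted p = 0.022). Cyp2c23, an arachidonic acid epoxygenase gene, went from 6.41, within the silent range, to 6.81 (difference 0.41, SE 0.0842; adjusted p = 0.0267). Cyp2j13, a P450 gene outside the naming rule and chosen after its value was seen, fell by 0.59 (SE 0.13; adjusted p = 0.0336). Each of these 4 calls was lost without shGFP 3 or shMKRN1 6 and without at least 1 further array (highest adjusted p = 0.105).

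None of the 21 measured receptor genes for these lipids passed limma, and 4 had an unadjusted p under 0.05, 1 of them higher. With 4.49% and 19.5% of all genes past these thresholds, both counts are near the background, and other settings gave between 0 and 3 calls. In 17 of the 21 the mean was lower in shMKRN1, with a median difference of -0.07, beside -0.04 for the silent receptor genes and 0.01 for all genes. Cysltr1, a receptor of cysteinyl leukotrienes chosen after its value was seen, was nearest to the threshold, at 7.52 and 7.84 (difference 0.32, SE 0.0797; adjusted p = 0.0518).

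The genes that repair lipid hydroperoxides included the increase closest in size to that of Alox15 among the 193, that of Gpx4. Gpx4 was known to change when the lists were chosen, so its place among them is a description. Of 35 genes in the repair and ferroptosis list, 6 rose and none fell (17.1%, beside 4.49% of all genes). In 28 of them the mean was higher in shMKRN1 (median difference 0.10, beside 0.01 for all genes). Gpx1, chosen after its value was seen, was lower without overlap, at 11.80 and 11.57 (difference -0.23, SE 0.0613, limma adjusted p = 0.0665). With quantile normalization, genes above the median level only, array weights or an intensity trend, 1 gene of the list was called lower. Gpx4 read 10.5, 10.21, 10.53 and 10.21 on arrays shGFP 1, 3, 5 and 7 and 11.1, 11.16, 11.27 and 11.13 on arrays shMKRN1 2, 4, 6 and 8. The groups did not overlap, and the increase of 0.80 (1.75-fold, SE 0.0864; limma adjusted p = 0.00154) was kept without each array. The glutathione-degrading Chac1 rose by 0.63 (SE 0.0669; adjusted p = 0.00154), and Slc40a1, the iron exporter ferroportin, by 0.49 (SE 0.0847; adjusted p = 0.0127). Both were kept without each array, Slc40a1 at an adjusted p of up to 0.0499. The other 3 increases, outside the naming rule and chosen after their values were seen, were Gpx2 (0.36), Gpx6 (0.25) and the glutathione synthetase gene Gss (0.35). They lost their calls without shMKRN1 2 or shMKRN1 6 and without at least 3 further arrays. Pebp1, a protein known to bind Alox15 and turn it toward membrane lipids, was at 0.04 (adjusted p = 0.83), and Aifm2, which protects membranes through coenzyme Q, at 0.10 (adjusted p = 0.41), both chosen after their values were seen.

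**Figure D3:**
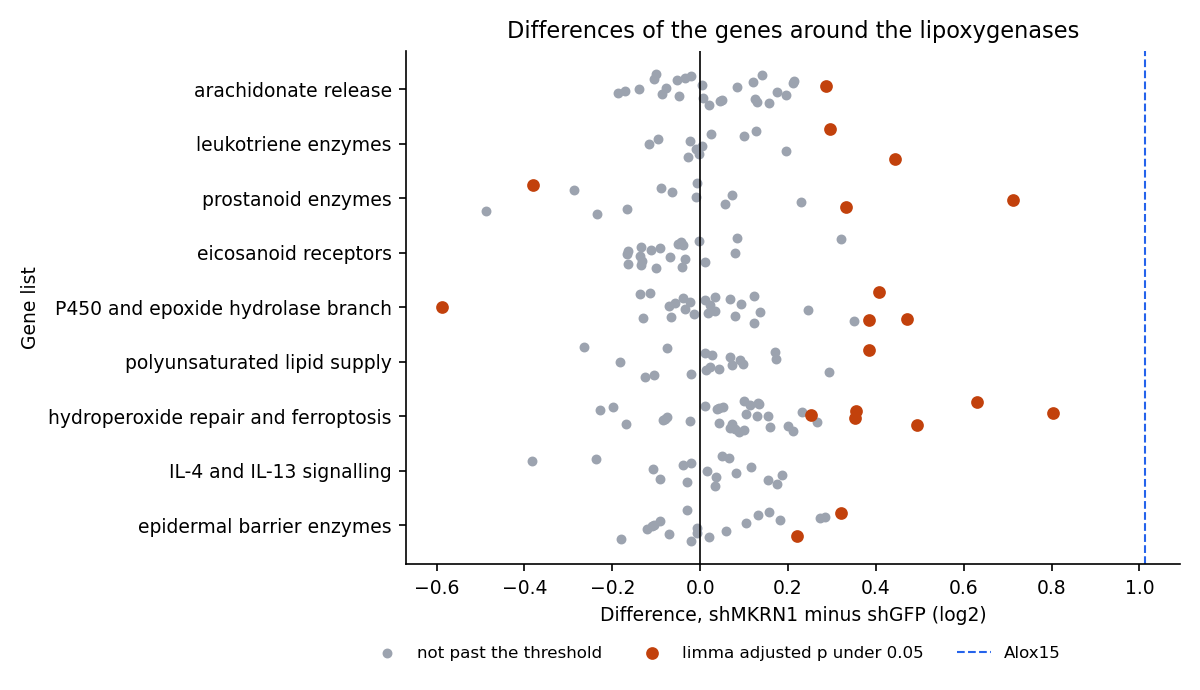
Difference between shMKRN1 and shGFP (log2, n = 4 each) for each measured gene of the 9 lists, 1 point per gene, orange where the limma adjusted p was under 0.05 and grey otherwise; vertical spread within a list only separates points. The dashed line marks Alox15 at 1.01, and the point nearest to it is Gpx4 at 0.80, a gene known to change when the lists were chosen.

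Of 17 measured genes of the interleukin pathway that raises Alox15 in macrophages, 0 passed limma and 4 had an unadjusted p under 0.05, 2 of them higher, both near the shares of all genes (4.49% and 19.5%). Stat6, its transcription factor, was at 8.54 and 8.72 (difference 0.18, SE 0.0707; adjusted p = 0.204), the receptor gene Il4ra at 7.67 and 7.78 (adjusted p = 0.366), and the receptor gene Il13ra1 at 8.59 and 8.20 (difference -0.38, SE 0.095; adjusted p = 0.0514). These 3 were chosen after their values were seen. Other settings gave between 0 and 2 calls in this list. Of the 20 measured enzymes of the epidermal barrier, in which Alox12b and Aloxe3 act, 2 rose (10%, beside 4.49% of all genes). They were the aldehyde dehydrogenase gene Aldh3a2 at 0.32 (SE 0.0553, limma adjusted p = 0.0131) and Sptlc1, a subunit of serine palmitoyltransferase, at 0.22 (SE 0.0465, limma adjusted p = 0.0285). Both enzymes are used outside the skin as well, and Sptlc1 lost its call without shGFP 1, shGFP 3, shMKRN1 2, shMKRN1 4 or shMKRN1 6 (adjusted p up to 0.104), Aldh3a2 without shGFP 3 (0.0523).

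Most markers of macrophages, eosinophils and mast cells, which are known to express Alox15, stayed within the silent range. Of 17 macrophage and monocyte markers, 4 lay above 6.5, Cd68 (mean of all arrays 9.58), Csf1r (6.74), Tyrobp (6.73) and Fcer1g (6.51), while Ptprc (5.63), Adgre1 (5.23) and Lyz2 (5.26) lay within the silent range. The mean level of the list was 6.16 to 6.36 on the shGFP arrays and 6.12 to 6.30 on the shMKRN1 arrays, and 1 member, Cd163, passed the test, lower and within the silent range. Of 12 eosinophil and mast cell markers, 2 lay above it, Siglecf (7.40) and Kit, and Kit, also a gene of germ cells and early embryos, rose by 0.48 (SE 0.0671; limma adjusted p = 0.00513). The list level was 5.53 to 5.69 in shGFP and 5.53 to 5.71 in shMKRN1, with the eosinophil gene Prg2 at 5.74 and the mast cell gene Cpa3 at 4.30. Of 7 megakaryocyte markers 5 lay above 6.5, and of 10 keratinocyte markers 5 did. None of either list passed limma, with 0 and 1 at an unadjusted p under 0.05. List levels on the shGFP and shMKRN1 arrays were 6.63 to 6.83 and 6.68 to 6.85 for megakaryocytes and 6.28 to 6.46 and 6.36 to 6.44 for keratinocytes. The single markers named here were chosen after their values were seen. Of 11 fibroblast markers, 8 lay above the silent limit, with list levels of 7.26 to 7.39 in shGFP and 7.28 to 7.47 in shMKRN1. By limma 2 rose, Col1a1 (0.37, adjusted p = 0.0486) and Pdgfrb (0.35, adjusted p = 0.0342), and the other 9 did not pass. In 8 of the 11 the mean was higher in shMKRN1. S100a4, within the silent range, was lower, at -0.27 (limma adjusted p = 0.118), while Vim was at 0.00 and Col3a1 at 0.03. These 3 were also chosen after their values were seen. The shares past limma were 5.88% for macrophage, 8.33% for eosinophil and mast cell and 18.2% for fibroblast markers, beside 4.49% of all genes. The part of fibroblasts in the Alox15 difference was not tested. In bulk RNA more cells with Alox15 and more Alox15 RNA per cell cannot be told apart.

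The genes whose levels ran most like Alox15 over the 8 arrays were taken from 9730 named genes above the median level. In order of likeness they were Mixl1, Zc3hc1, Pdxk, Igfbp3, Tmed7, Akirin2, Tmem185a and Mdh2, with Pearson r from 0.997 to 0.989 over 8 arrays. In deviations from the group means on the same arrays r was 0.876 to 0.96, which the choice of these genes partly fixes. The measure is free of size: Mixl1, a homeobox gene of the primitive streak, differed by 1.66 (SE 0.154; limma adjusted p = 0.000882) and Igfbp3, a binding protein of insulin-like growth factors, by 0.82 (SE 0.0936; adjusted p = 0.0021). Tmem185a differed by 0.55 (SE 0.0767; adjusted p = 0.00512) and the pyridoxal kinase gene Pdxk by 0.30 (SE 0.0535; adjusted p = 0.0142), the latter lost without shMKRN1 2, shGFP 3 or shMKRN1 4 (up to 0.0598). Zc3hc1 (0.19), Tmed7 (0.13), Akirin2 (0.09) and the malate dehydrogenase gene Mdh2 (0.13) did not pass the test (adjusted p from 0.0585 to 0.279). The 4 most opposite patterns were Snora23, the selenoprotein gene Selenow, the glutathione transferase gene Gstm3 and the cyclin gene Ccne1, with r from -0.988 to -0.959. In deviations from the group means r was -0.868, -0.836 and -0.812 for the first 3 and -0.392 for Ccne1. Snora23 fell by 0.26, Selenow by 0.29 and Gstm3 by 0.26 (adjusted p from 0.0205 to 0.027), calls that were lost without shGFP 1, shGFP 3, shMKRN1 2, shMKRN1 4 or shMKRN1 6, and Ccne1 was at -0.11 (adjusted p = 0.186). All of them were read from the same 8 arrays as Alox15 and share their preparation.

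**Figure D4:**
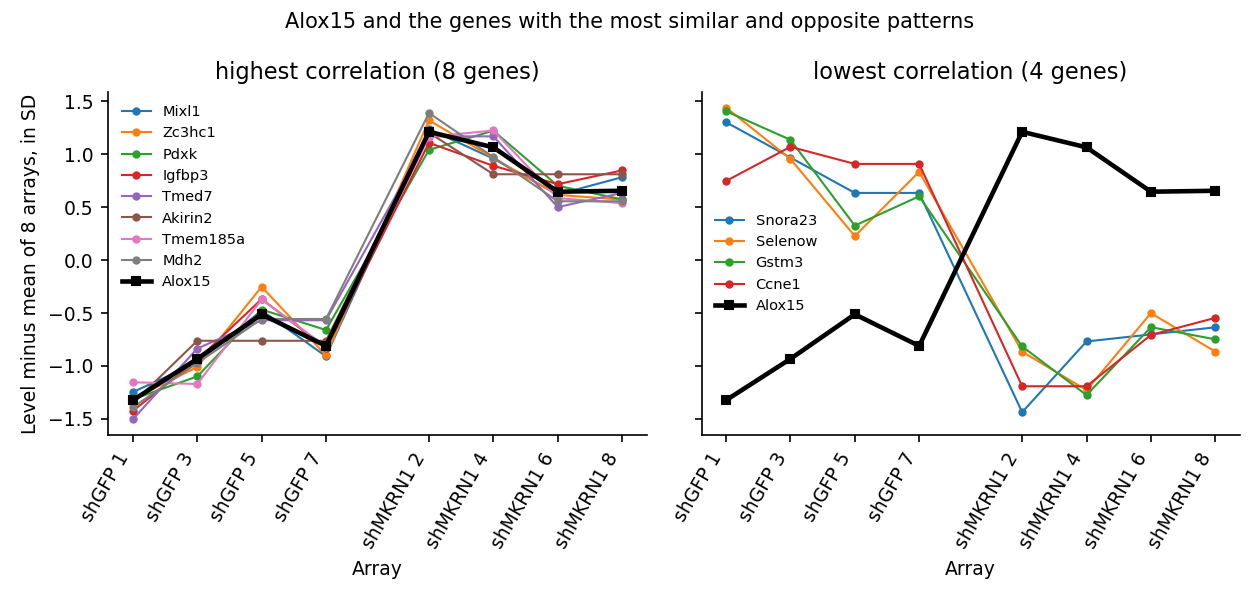
Level of each gene on the 8 arrays, as the deviation from its own mean in units of its SD over the arrays, for the 8 genes with the highest (left) and the 4 with the lowest (right) Pearson correlation with Alox15 (black, squares). In the left panel Alox15 is lowest on shGFP 1 (7.398) and highest on shMKRN1 2 (8.832), and the other lines run close to it.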

How the data were processed

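Total RNA was hybridised to 8 Affymetrix gene arrays (4 shGFP, 4 shMKRN1), grouped by the hairpin in their titles. The deposited table holds log2 values for 34760 probe sets, which the authors made, per the submitters' processing notes, with RMA (version not given in the sources used here). The method brings arrays to a common distribution, so a change shared by most genes is not visible, and changes of dim genes are understated. The platform annotation gave 1 symbol to 21640 probe sets, several to 1321 and none to 11799; 19937 genes were tested with limma 3.58.1 (R 4.3.3; lmFit, eBayes, no filter, no covariate), two-sided, adjusted over all genes by Benjamini-Hochberg. The number of arrays limits the precision. Members, lists and alternatives were chosen with earlier results of these data known. Named were the 8 genes, Mkrn1, up to 3 called genes per list with the smallest p, 3 measured neighbours on each side, and the 8 most and 4 least alike genes, with predicted genes passed over; exceptions are marked. Synonyms, gene order and promoters came from RefSeq GRCm38.p6. Alternatives were other scalings, filters, weights and arrays left out.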

Additional observations from a re-analysis of the deposited data

Results flagged for a closer look

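In 80 groups of 4 values, 2 had a single array far from the other 3 by Dixon's test, where chance flags about 1 in 20. Both lay on array shMKRN1 8: Ptgis at 8.85, beside 9.052 to 9.073 on the other shMKRN1 arrays, and Sptlc1 at 9.302, beside 9.374 to 9.385.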

How the results depend on the processing

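The Alox15 difference lay between 0.93 and 1.08 under all 12 alternatives tried for it (0.93 to 1.08 with 1 array left out, 1.00 with quantile normalization, 1.04 with median centring). Averaging the probe sets of a gene, among the 12, could not move it, as each of the 8 genes had 1 probe set. Alox5, Alox5ap, Aloxe3 and Alox12b kept their signs under the same alternatives, while the sign turned under 1 for Alox8, 5 for Alox12 and 3 for Alox12e, by less than the spread between arrays. The Mkrn1 difference lay between -0.63 and -0.57 under the 11 alternatives tried for it. Of all genes 896 passed, against 1595 with genes above the median level only, 378 adjusted over every probe set, 2757 with array weights, 1548 with an intensity trend and 309 to 852 with 1 array left out. Of the 193 listed genes 19 passed, against 8 adjusted over every probe set, 37 with array weights and 6 to 20 with 1 array left out. Akr1c18 (adjusted p = 0.0746) and Gpx2 (0.0511) lost their calls with quantile normalization. The cause of these shifts was not tested. No paired analysis was run, as the groups share no replicate number, and no term for array number was fitted. Any drift with array number, such as that of Ptgs2, Ptges and Slco2a1, therefore counts as spread between arrays in the limma fits. Whether arrays with neighbouring numbers were prepared together is not in the labels and was not tested. Genes within the range of the silent receptors, Alox12 and Alox12e among them, are too dim for a small change to be seen.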
